A study of Mus musculus with 24 samples.

Results

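The genes described here are the secreted Wnt ligands, the R-spondins, the Frizzled receptors and their core partners, measured in mouse liver and epididymal white adipose tissue (EWAT). Members were taken by symbol from the annotation of the array: every gene named Wnt, Rspo or Fzd with a number, together with Lrp5, Lrp6, Lgr4, Porcn, Wls, Ctnnb1, Tcf7l1 and Tcf7l2. This gave 42 of the 19057 named genes, covered by 85 probes. They are 19 Wnt ligands, 4 R-spondins, 10 Frizzled receptors, 3 co-receptor genes, 2 genes of ligand secretion and 3 genes of signal transduction. The remaining symbol that the rule takes, Fzd10os, names a transcript from the strand opposite Fzd10 and not a receptor.

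The series asks how the transcription factor SOX6 bears on fat formation and Wnt signalling. EWAT and liver came from male C57BL/6J mice on a normal chow diet that had received, 48 h earlier and by the intraperitoneal route, either antisense gapmer oligonucleotides specific for SOX6 or control gapmer oligonucleotides. A gapmer pairs with its target RNA and leads to its cutting by a cellular RNase, and all mice received one of these oligonucleotides, so no untreated tissue was measured. The 4 groups were EWAT with the SOX6 oligonucleotide, EWAT with the control oligonucleotide, liver with the SOX6 oligonucleotide and liver with the control oligonucleotide, with 4 samples each, called S1 to S4 and C1 to C4. The labels number the samples but do not say that each came from a separate animal, so that p-values measure only the spread between these samples. Total RNA was hybridised to Illumina mouse bead arrays, 10 for EWAT and 14 for liver, and repeat arrays of a sample were averaged.

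Wnt proteins are lipid-modified by Porcn and carried to the cell surface by Wls, and they signal through Frizzled receptors with the co-receptors Lrp5 and Lrp6. In the canonical branch, beta-catenin (Ctnnb1) then accumulates and acts with DNA-binding partners of the TCF family, such as Tcf7l1 and Tcf7l2. R-spondins raise the response by binding Lgr receptors and keeping Frizzleds at the surface. In fat, canonical Wnt signals are known to hold back the formation of adipocytes, and in liver, Wnt2, Wnt9b and Rspo3 from central vein and sinusoidal endothelium set the gene programme of pericentral hepatocytes.

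Between 41.5% and 45.9% of all probes were detected on an EWAT array and between 32.9% and 36.4% on a liver array. Tissue identity followed the labels: the 10 hepatocyte genes had median log2 levels of 13.66 to 13.92 in liver samples and at most 4.49 in EWAT, and the 10 mature adipocyte genes had medians of 9.46 to 10.61 in EWAT and at most 4.83 in liver. Of the 5 Sox6 probes, 1 was detected. It had log2 levels of 5.54, 5.12, 5.74 and 4.94 in EWAT samples S1 to S4, against 6.14, 6.19, 5.45 and 5.85 in C1 to C4, a difference of -0.57 (two-sided exact permutation p = 0.0857). In liver its difference was -0.15 (exact permutation p = 0.229), and the smallest p that 4 against 4 samples allow is 0.0286. There the probe was detected on 2 of 6 SOX6 arrays and 7 of 8 control arrays. Its liver levels of 4.71 to 5.24 were near background, which limits the size of that difference.

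4 EWAT samples stood apart in genes of the epididymal duct and its surroundings. In S2 and S4 all 8 smooth muscle genes were detected, with medians of 10.67 and 10.35 against 5.12 to 7.06 in the other EWAT samples. The 16 epididymis and deferent duct genes summed to 95.2 and 94.0 log2 units there, against 71.6 to 77.0, with 6 of 16 and 5 of 16 detected against 2 to 5 in the others. The medians of this list were 4.53 and 4.48, against 4.40 to 4.51 in the others, so the higher sums rest on a minority of its genes. In C3 and S3, 11 of 12 ciliated duct genes were detected, with medians of 7.43 and 7.38, while the medians in the other EWAT samples were at most 4.56. Both treatments are represented in the second pair, and S2 and S4 both received the SOX6 oligonucleotide. S2 and S4 also held the lowest Sox6 values. Without them the Sox6 difference in EWAT was -0.27 (exact permutation p = 0.4, where 2 against 4 samples allow no p below 0.0667), and without C3 and S3 it was -0.86 (exact permutation p = 0.1, the smallest that 3 against 3 samples allow).

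Detection showed which parts of the pathway each tissue expressed above the negative control probes. A gene counted as detected when 1 of its probes had a detection p-value under 0.05 in at least 3 of the 8 samples of a tissue. By that rule 22 of the 42 members were detected in EWAT, or 52.4%, against 57.6% of all named genes. In liver 15 of 42 were detected, or 35.7%, against 46.9% of all named genes. Both shares lay near or below the background, and all 15 genes detected in liver were also detected in EWAT. The cascade differed by role. Most receptors and all secretion and transduction genes were detected in EWAT, while most ligands were detected in neither tissue.

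Of the 19 Wnt ligands, 5 were detected in EWAT, namely Wnt2, Wnt4, Wnt5a, Wnt5b and Wnt6, and 2 in liver, Wnt2 and Wnt5b. In the 4 EWAT samples outside the pairs with duct genes (S1, C1, C2 and C4), 18 members in place of 22 were detected in at least 3 samples. The members lost were Wnt2, Wnt4, Wnt6 and Fzd2, which leaves 2 ligands, Wnt5a and Wnt5b. Wnt5a, a ligand best known for signalling without beta-catenin, was detected on all 10 EWAT arrays and on none of the 14 liver arrays. Wnt2, a ligand of liver sinusoidal endothelium, showed the reverse distribution, with detection on 14 of 14 liver arrays and on 3 of 10 EWAT arrays. Wnt4 was detected on 5 EWAT arrays and 3 liver arrays, and Wnt6 on 5 and 6. Wnt10b, which is known to hold back adipocyte formation, was seen on 2 EWAT arrays and 1 liver array only. Wnt9b, the other ligand of the central vein endothelium, was on no array of either tissue. The ligands Wnt1, Wnt3a, Wnt7a, Wnt8a and Wnt11 were likewise detected nowhere, which says only that their signals did not exceed the negative controls.

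2 of the 4 R-spondins were detected. Rspo3 was on every array of both tissues, and Rspo1 on all 10 EWAT arrays and no liver array, while Rspo2 and Rspo4 were on none. Of the 10 Frizzled receptors, 8 were detected in EWAT (Fzd1 to Fzd8) and 5 in liver (Fzd4 to Fzd8). Fzd2 was on 8 EWAT arrays and no liver array. The co-receptors Lrp5 and Lrp6, the acyltransferase Porcn, the carrier Wls and the transducers Ctnnb1, Tcf7l1 and Tcf7l2 were on every array of both tissues, whereas the single probe of the R-spondin receptor Lgr4 was on none. In all, 7 members were detected in EWAT and not in liver (Fzd1, Fzd2, Fzd3, Rspo1, Wnt4, Wnt5a and Wnt6, of which Fzd2, Wnt4 and Wnt6 are those lost in the 4 samples outside the pairs), where 13.3% of all named genes had that pattern.

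**Figure D1:**
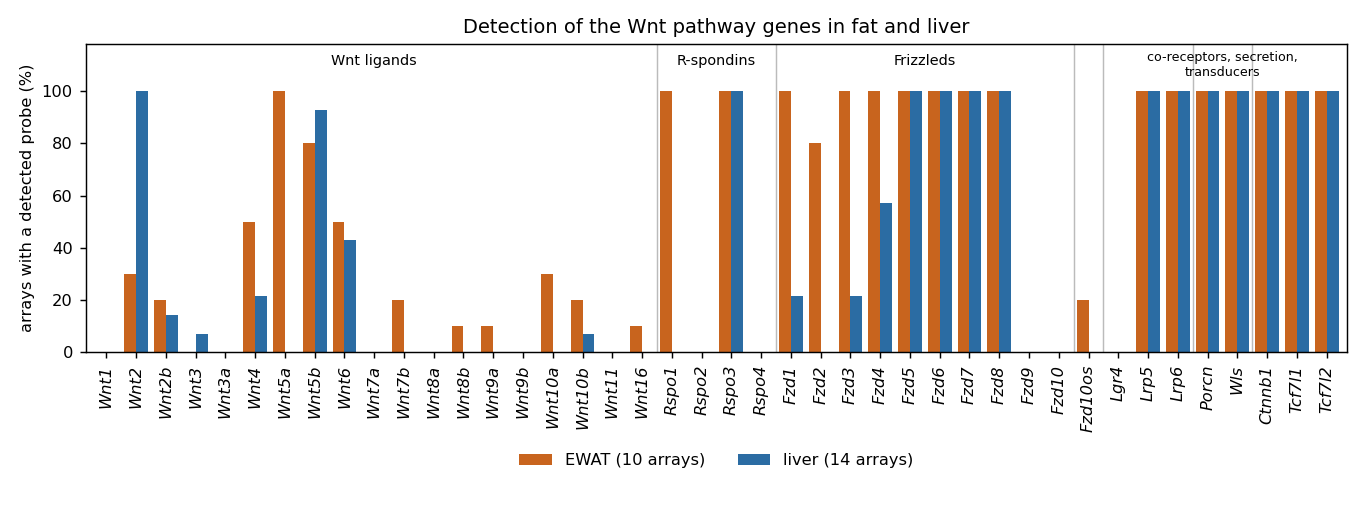
Percent of arrays of each tissue on which at least 1 probe of a gene had a detection p-value under 0.05, for the 42 genes grouped by role, with EWAT (10 arrays) in orange and liver (14 arrays) in blue. The ligands on the left are mostly at or near 0, while the co-receptors Lrp5 and Lrp6 and the secretion and transduction genes on the right reach 100% in both tissues.

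Control EWAT was set against control liver to give the level of each gene without the SOX6 oligonucleotide, after all 24 arrays had been normalized together. The carrier Wls was 10.3-fold higher in EWAT, Tcf7l1 3.28-fold, Fzd4 2.55-fold and Porcn 2.30-fold, while Rspo3 was 2.55-fold lower and Fzd7 1.78-fold lower in EWAT. Fzd4 was detected on only 4 of the 8 control liver arrays. Wnt5a was at least 4.51-fold higher and Wnt2 at least 2.54-fold lower in EWAT. A gene was tested when detected in at least 3 of the 4 control samples of either tissue, and 19 members qualified. By limma with Benjamini-Hochberg adjustment over 10514 genes, 15 of them passed an adjusted p of 0.05, against 69.6% of all genes tested. Of these, 10 were higher (42.2% of all genes) and 5 lower (27.4%). The same 15 had an unadjusted p under 0.05, against 72.1%. In 13 members the 2 groups did not overlap, against 64.8%. Without EWAT sample C3 the same 15 members passed. A gene detected in 1 tissue only entered the test through the tissue where its signal was high, so the calls of such members are a description. Among the 13 members detected in both tissues, 10 passed, against 67.2% of such genes. In bulk tissue, fewer cells of a type and less RNA per cell cannot be told apart. Fibroblast and stellate markers had medians of 8.19 to 9.62 in control EWAT and 5.60 to 5.94 in control liver, and endothelial markers 8.05 to 8.16 and 6.66 to 7.57; their part in these differences was not tested.

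Among the ligands, Wnt5a had log2 levels of 7.21, 7.31, 7.11 and 7.26 in control EWAT C1 to C4, against 4.67, 4.42, 4.50 and 4.38 in control liver (limma adjusted p = 1.32e-08). It was not well above background on any of the 8 control liver arrays, so its fold is a bound, taken against the lowest signal of a detected probe on those arrays. A second Wnt5a probe, also undetected in control liver, averaged 5.01 in control EWAT, which is below the bound of 5.05 for control liver, so it gives no fold. Wnt2 was at 4.41, 4.55, 4.49 and 4.44 in control EWAT, where no array detected it, against 5.48, 5.99, 6.41 and 6.34 in control liver (limma adjusted p = 3.66e-05). The 2 ligands thus had non-overlapping levels in opposite directions. Wnt5b was lower in EWAT by a log2 difference of -0.73 ± 0.21 (SE, n = 4 each; limma adjusted p = 0.00956), with 1 EWAT sample, C3 at 5.61, inside the liver range of 5.57 to 6.02, and the difference was -0.90 without C3.

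The 2 detected R-spondins also differed in opposite directions. Rspo3 had 5.79, 4.89, 5.80 and 5.13 in control EWAT and 6.89, 6.67, 6.87 and 6.59 in control liver, a difference of -1.35 ± 0.22 (SE; limma adjusted p = 0.000253). Rspo1 had 4.92, 5.43, 6.47 and 4.86 in control EWAT and 4.60, 4.41, 4.48 and 4.38 in control liver, where no array detected it, which makes it at least 1.29-fold higher in EWAT (limma adjusted p = 0.0176). The bound for control liver is 5.05, and C1 and C4 lay below it, so the fold rests on C2 and C3. The highest Rspo1 value came from C3, one of the samples with ciliated duct genes. Without C3 the fitted difference was 0.60 in place of 0.95 and still passed, but that fit uses undetected liver values. No fold without C3 is given. With each array scaled to its 75th percentile, Rspo1 did not pass (limma adjusted p = 0.219).

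The Frizzled receptors split in both directions. Fzd4, a receptor of endothelium that also binds Norrin, had 6.46, 6.63, 6.08 and 6.33 in control EWAT and 4.80, 5.28, 5.43 and 4.58 in control liver (limma adjusted p = 0.000186). The tested probe was detected on 4 of the 8 control liver arrays, and a second probe, detected on 1 of them, differed by 1.28 the same way. Fzd1 was higher in EWAT by 1.08 ± 0.22 (SE; limma adjusted p = 0.0015), with detection on only 2 of the 8 control liver arrays. Fzd6 was higher by 0.79 ± 0.27 and its second probe by 0.89, but the tested probe did not pass without liver sample C4 (limma adjusted p = 0.0726), and without EWAT sample C3 its difference was 0.53. Fzd7 had 6.87, 6.94, 6.60 and 6.72 in control EWAT against 7.55, 7.63, 7.55 and 7.71 in control liver, and Fzd8 was lower in EWAT by -0.64 ± 0.15 (limma adjusted p = 0.00259). Fzd5 differed by 0.14 with a 95% interval of -0.18 to 0.46, and did not pass. Fzd3 did not pass either, and since no control liver array detected it and its level in control EWAT was below the bound, no fold is given.

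In the secretory arm, Wls had 9.69, 9.29, 9.47 and 9.37 in control EWAT and 6.48, 5.91, 6.02 and 5.93 in control liver, a difference of 3.37 ± 0.15 (SE, n = 4 each; limma adjusted p = 1.54e-08). All EWAT samples lay above all liver samples, and 3 other probes, detected on 5, 5 and 2 of the 8 control liver arrays, differed by 1.30, 3.02 and 3.21 in the same direction with no overlap. A further probe was detected on none of these arrays and was at least 1.03-fold higher in EWAT. Porcn had 7.91, 7.54, 7.76 and 7.57 in control EWAT and 6.61, 6.51, 6.38 and 6.45 in control liver (limma adjusted p = 1.04e-05), also without overlap. Its second probe was not detected in control liver and was at least 1.24-fold higher in EWAT.

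Downstream of the receptors, the transcription factor Tcf7l1 had 8.72, 9.02, 9.21 and 8.99 in control EWAT and 7.90, 7.08, 7.13 and 6.98 in control liver, a difference of 1.71 ± 0.20 (SE; limma adjusted p = 2.52e-05). Tcf7l2 was higher by 0.69 ± 0.17, with overlap at liver sample C3. Ctnnb1 was higher by 0.74 ± 0.09 without overlap under quantile normalization, whereas with 75th-percentile scaling its difference was -0.03. Lrp5 and Lrp6 did not pass, with differences of 0.09 (95% interval -0.35 to 0.54) and -0.30 (-0.61 to 0.004). The 75th-percentile scaling moved the median of all genes by -0.28 log2 units from 0.18, gave 45.1% of all calls as higher in EWAT in place of 60.7%, and split the member calls into 8 higher and 7 lower. Under it Lrp6 passed as lower at -0.54, and the fitted difference of Fzd3 was -0.38 (limma adjusted p = 0.0483) in place of 0.21. Fzd3 is thus among the 7 lower calls, although its tested probe was detected on all 5 control EWAT arrays and on no control liver array. That value uses undetected liver signals.

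**Figure D2:**
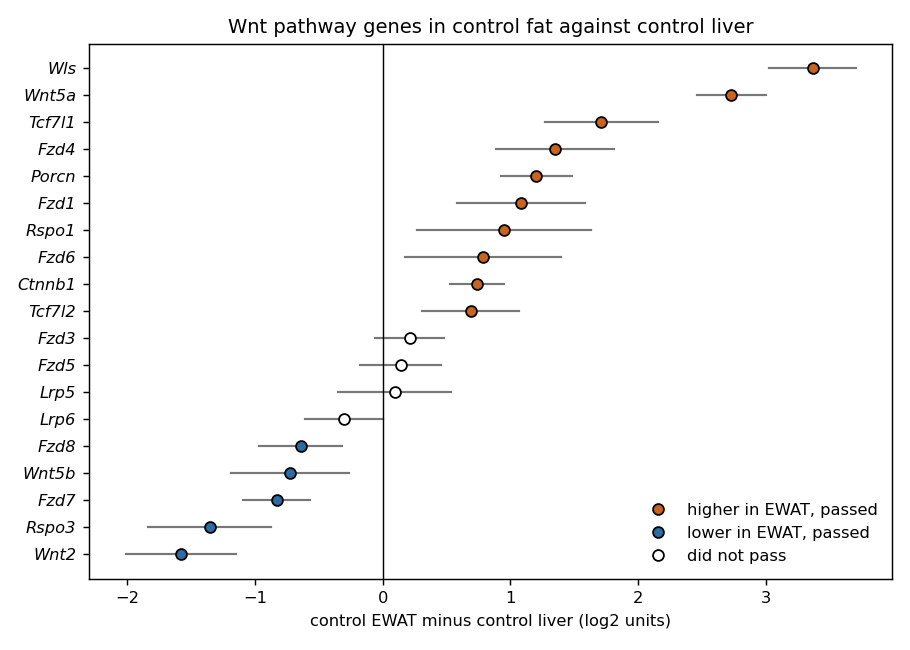
Log2 difference of control EWAT minus control liver for the 19 tested genes, with 95% intervals from limma (4 samples each); filled points passed an adjusted p of 0.05. Wls at 3.37 and Wnt5a lie farthest to the right and Wnt2 and Rspo3 farthest to the left. The points of Wnt5a, Rspo1, Fzd3 (control liver) and Wnt2 (control EWAT) rest on signals not well above background in that tissue. Fzd1 and Fzd4 were detected on only 2 and 4 of the 8 control liver arrays.

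Other genes of the pathway also differed between the tissues. Secreted and membrane antagonists passed as higher in EWAT in 6 and as lower in 3 of 10 tested, intracellular and membrane transducers in 23 and 7 of 36, and general Wnt target genes in 9 and 2 of 16. Pericentral Wnt target genes of hepatocytes were lower in 7 of 9 tested and higher in none. Hepatocyte markers had medians of at most 4.45 in control EWAT, so the tissue labels already imply the direction of the pericentral genes. A gene of any list detected in 1 tissue only entered through the tissue where it was high, so such calls are a description. In all, 90%, 83.3%, 68.8% and 77.8% of these lists passed, against 69.6% of all genes, of which 42.2% were higher and 27.4% lower. With 75th-percentile scaling the higher and lower calls were 5 and 4, 16 and 7, 8 and 3, and 0 and 8, against 29.7% and 36.2% of all genes. The median differences of these lists were 0.63, 0.52, 0.78 and -1.79, against 0.18 over all genes tested.

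Promoter sequences are shown for 5 members that passed between the tissues, because the motifs searched are those of the pathway's own TCF partners and of SOX proteins. Windows reach from 250 bases before to 50 bases after the start of a RefSeq transcript (GRCm38.p6), 5′ to 3′ on the strand of the gene, and capitals mark the TCF/LEF cores CTTTGA and CTTTGT and the SOX core AACAAT on either strand. The windows are chr3:159839400-159839699 (plus strand) for Wls, chr6:72788996-72789295 (minus) for Tcf7l1, chr19:55741560-55741859 (plus) for Tcf7l2, chr5:4758167-4758466 (minus) for Fzd1 and chr6:119449337-119449636 (minus) for Wnt5b, each over the start of a transcript. For Tcf7l2 and Wnt5b, which have more than 1 window, the one with the lowest coordinates is shown. On the minus strand of Wnt5b this is the most downstream of its starts.
Wls: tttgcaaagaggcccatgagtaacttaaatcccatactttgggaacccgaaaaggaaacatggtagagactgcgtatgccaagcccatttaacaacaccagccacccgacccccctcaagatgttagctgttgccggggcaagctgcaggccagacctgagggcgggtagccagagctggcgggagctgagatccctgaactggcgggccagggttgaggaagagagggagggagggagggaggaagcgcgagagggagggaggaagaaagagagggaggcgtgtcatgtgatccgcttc
Tcf7l1: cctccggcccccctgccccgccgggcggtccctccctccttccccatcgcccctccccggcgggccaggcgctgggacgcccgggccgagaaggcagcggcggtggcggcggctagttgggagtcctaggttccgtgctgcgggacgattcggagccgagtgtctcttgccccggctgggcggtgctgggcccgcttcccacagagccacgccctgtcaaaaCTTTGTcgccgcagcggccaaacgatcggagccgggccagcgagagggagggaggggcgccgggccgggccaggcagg
Tcf7l2: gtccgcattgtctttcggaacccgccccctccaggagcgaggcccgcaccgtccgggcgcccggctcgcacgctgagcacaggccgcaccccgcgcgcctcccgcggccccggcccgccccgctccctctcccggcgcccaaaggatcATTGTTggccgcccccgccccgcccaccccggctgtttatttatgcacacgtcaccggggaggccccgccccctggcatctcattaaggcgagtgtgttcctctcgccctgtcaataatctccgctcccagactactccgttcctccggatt
Fzd1: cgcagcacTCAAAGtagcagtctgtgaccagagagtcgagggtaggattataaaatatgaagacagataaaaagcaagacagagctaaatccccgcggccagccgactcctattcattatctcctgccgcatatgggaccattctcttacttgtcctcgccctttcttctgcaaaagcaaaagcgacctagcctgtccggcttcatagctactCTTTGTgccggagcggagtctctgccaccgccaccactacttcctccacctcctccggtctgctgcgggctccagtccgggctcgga
Wnt5b: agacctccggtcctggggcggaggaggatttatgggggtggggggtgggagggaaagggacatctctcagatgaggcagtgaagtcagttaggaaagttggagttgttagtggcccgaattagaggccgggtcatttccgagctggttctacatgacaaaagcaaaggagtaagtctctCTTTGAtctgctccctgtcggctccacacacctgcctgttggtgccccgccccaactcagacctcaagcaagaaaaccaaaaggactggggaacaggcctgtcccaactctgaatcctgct

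The Wls window held none of the 3 motifs. Counted from the transcript start, Tcf7l1 held CTTTGT at -28, Tcf7l2 held the SOX core on the other strand at -102, Fzd1 held CTTTGA on the other strand at -242 and CTTTGT at -37, and Wnt5b held CTTTGA at -71. Windows were at hand for 28 of the 42 members, 33 in all. AACAAT was in 2 of these 33 windows, or 6.06%, against 10.7% of all 32851 windows; CTTTGA was in 3 of 33 windows against 5257 of 32851, and CTTTGT in 18.2% against 18.7%. The members' windows had a median GC content of 71.0%, against 52.7% for all windows. CTTTGA and CTTTGT differ in their last letter only, and a match describes letters and not a bound site.

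The SOX6 oligonucleotide was set against the control oligonucleotide in EWAT, the tissue the series is about. None of the 22 members tested passed (limma, Benjamini-Hochberg over 10978 genes), and no gene of the array did, the background being 0%. The smallest adjusted p of any gene was 0.841. At an unadjusted p of 0.05, 3 of 22 members had p-values below the threshold, against 5% of all genes. These were the ligand Wnt5a, the R-spondin Rspo3 and the receptor Fzd2. The member differences ran from -0.40 to 1.30 with a median of 0.08, against -0.02 over all genes. In 2 members, Wnt5a and Lrp5, the groups did not overlap, against 2.8% of all genes.

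Wnt5a had log2 levels of 7.45, 7.32, 7.01 and 7.26 in S1 to S4, against 7.64, 7.74, 7.54 and 7.69 in C1 to C4. All SOX6 samples lay below all control samples, with a difference of -0.40 ± 0.13 (SE, n = 4 each; limma adjusted p = 0.841). A second Wnt5a probe showed the same order without overlap, 4.85, 4.79, 4.73 and 5.04 in SOX6 samples against 5.06, 5.52, 5.34 and 5.22 in control samples. That probe was near background in the SOX6 samples, with detection on 4 of 5 SOX6 arrays, and it measures the same RNA samples. The difference of the tested probe was negative within each of the 4 chips, from -0.73 to -0.07. The chips hold these same samples, so the signs add no support to the lack of overlap. Without S2 and S4 the difference was -0.43. Without S2, S4, C3 and S3 it was -0.24, with an interval of -0.71 to 0.22. That fit leaves S1 alone against C1, C2 and C4, and the lone sample is assumed to vary as the control samples do.

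Rspo3 had 5.95, 8.10, 6.57 and 7.62 in S1 to S4 and 6.23, 5.12, 6.24 and 5.45 in C1 to C4, a difference of 1.30 ± 0.47 (SE; limma adjusted p = 0.841). The high values were those of S2 and S4, the 2 samples with smooth muscle and epididymis genes, and S1 lay inside the control range. Without S2 and S4 the difference was 0.50, with an interval of -0.37 to 1.37. Without these and C3 and S3 it was 0.35. Over the 8 EWAT samples Rspo3 had an SD of 1.02 log2 units, at the 97.4th percentile of all genes, against a median SD of 0.23.

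Fzd2, a receptor used by Wnt5a, had 5.24, 6.11, 5.48 and 5.79 in S1 to S4 and 4.88, 5.23, 5.51 and 4.67 in C1 to C4. S1 and S3 lay below C3, so that the groups overlapped, and the difference was 0.58 ± 0.24 (SE; limma adjusted p = 0.841). It was 0.29 without S2 and S4 (interval -0.32 to 0.90). The control group detected Fzd2 on 3 of 5 arrays and the SOX6 group on 5 of 5.

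Lrp5, the co-receptor, had 7.11, 7.04, 6.91 and 6.93 in S1 to S4 and 7.82, 7.17, 7.17 and 7.27 in C1 to C4, a difference of -0.36 ± 0.17 with no overlap (SE; limma adjusted p = 0.841). It was -0.35 without S2 and S4 and -0.31 without all 4 samples with duct genes. C1 lay well above the other control samples, and without C1 the Lrp5 difference was -0.21. Wnt2 was detected on no control EWAT array and on 3 of 5 SOX6 arrays, so it entered the test only through the SOX6 group. It had 4.48, 4.88, 4.83 and 5.44 in S1 to S4 (limma adjusted p = 0.841). S1 and S3 lay below the bound of 4.85 for the control samples, so no fold is given. Wnt4 had 4.58, 5.67, 5.25 and 5.52 in S1 to S4 and 4.83, 4.69, 5.15 and 4.75 in C1 to C4. Its difference was 0.40 with an interval of -0.13 to 0.93, and its highest values were again S2 and S4. Without S2 and S4, Wnt2 and Wnt4 were detected in too few samples to be tested. Tcf7l1 differed by 0.17 (interval -0.12 to 0.46) and Wls by 0.16 (-0.12 to 0.44), whose other probes differed by -0.01 to 0.16. Without S2 and S4 these were 0.23 for Tcf7l1 and 0.11 for Wls. With S1 alone against C1, C2 and C4, Tcf7l1 differed by 0.44 (interval 0.01 to 0.87; limma adjusted p = 0.9999) and Wls by 0.0083.

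Ctnnb1, the central transducer, differed by -0.005 with an interval of -0.24 to 0.23, and Porcn by -0.04 (-0.29 to 0.21). The remaining members that were tested had differences between -0.17 and 0.17, and several of these moved when the samples with duct genes were left out. Rspo1 differed by 0.17 with all samples, by 0.74 without S2 and S4 (interval -0.44 to 1.93) and by 0.84 with S1 alone against C1, C2 and C4 (interval -0.005 to 1.68). Fzd5 differed by -0.15 without S2 and S4 and by -0.44 with S1 alone. Without S2 and S4, Fzd6 differed by 0.35, Wnt5b by 0.33 and Fzd1 by -0.35, and with S1 alone these were -0.13, 0.18 and -0.19. Fzd4 turned in direction, with -0.17 over all samples, 0.02 without S2 and S4 and 0.13 with S1 alone, and Fzd3 did too, with 0.12, -0.04 and -0.11. Without C3 and S3, Rspo3 differed by 1.63 and Fzd2 by 0.78 (limma adjusted p = 0.491 for both). None of these passed. For Tcf7l2, the tested probe differed by -0.08 (-0.33 with S1 alone), while a second probe differed by -0.44 without overlap, so that its 2 probes disagreed in size.

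**Figure D3:**
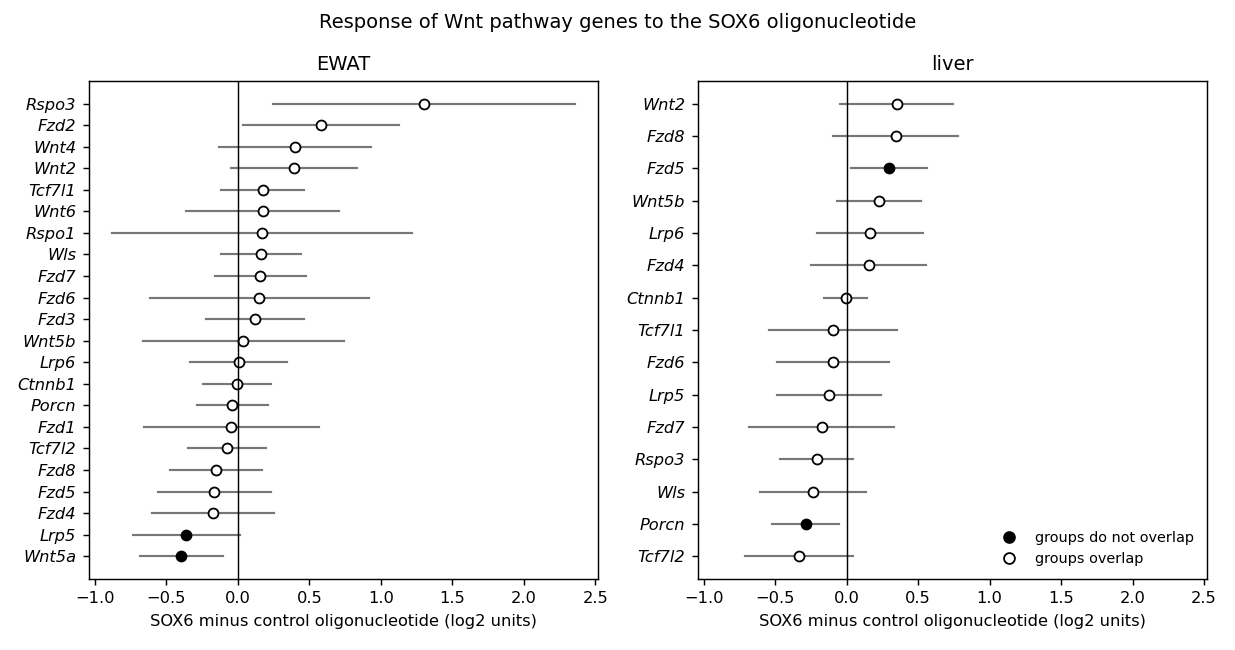
Log2 difference of SOX6 minus control oligonucleotide in EWAT (left, 22 genes) and liver (right, 15 genes), with 95% intervals from limma (4 samples each); filled points are genes whose 2 groups of samples do not overlap. Most intervals include 0, Rspo3 in EWAT has the widest excursion at 1.30, and no gene passed an adjusted p of 0.05.

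Several members were high or low together in the EWAT samples that carried duct genes. By the rule that both samples of a pair lie over 1 log2 unit above the highest of the 4 samples outside both pairs, 2 of the 44 member probes detected in at least 2 samples passed for S2 and S4, against 1.98% of 18656 such probes. They belong to Rspo3 and to the ligand Wnt7b. The Wnt7b probe entered the 44 only through S2 and S4, where it was high, so its pass is a description. Wnt7b had 6.88 in S2 and 6.08 in S4, against 4.62 in S3 and 4.26 to 4.50 in the remaining EWAT samples, and was detected on these 2 arrays and on no other EWAT or liver array. Its second probe was detected on no array and had 4.61 in S2 and 4.58 in S4, below C3 at 4.77. Wnt7b did not enter the SOX6 comparison because it was detected in 2 of 8 samples. For C3 and S3, 1 of 44 member probes passed, against 3.15%, and it belongs to Fzd6, a receptor with a known part in planar cell polarity. Fzd6 had 8.07 in C3 and 8.16 in S3, against 6.53 to 6.92 in the 4 samples outside both pairs. Its second probe had 7.94 and 8.28 against 6.83 to 7.03.

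Other members were above these 4 samples in both samples of a pair by smaller margins. In C3 and S3, Rspo1 had 6.92 and 6.79 against at most 6.18, and Wnt5b had 6.04 and 6.08 against at most 5.43. A probe of Wnt6 had 5.26 in C3 and 4.94 in S3, and 4.85 in S2 and 5.27 in S4, against at most 4.44. Fzd1 was lower, at 5.88 in C3 and 5.66 in S3, against 6.04 to 6.81 in the 4 samples outside both pairs. In both pairs the endothelial receptor Fzd4 was lower, at 6.53 and 6.63 in C3 and S3 and 6.59 and 6.34 in S2 and S4, against 6.79 to 7.09. Because these samples were singled out by their duct genes and not by a label, the values are a description, and the part of other tissue in them was not tested. By SD over the 8 EWAT samples, Rspo1 at 0.74 and Fzd6 at 0.53 were at the 95.4th and 91.6th percentile of all genes, while Porcn at 0.11 was at the 6.9th.

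**Figure D4:**
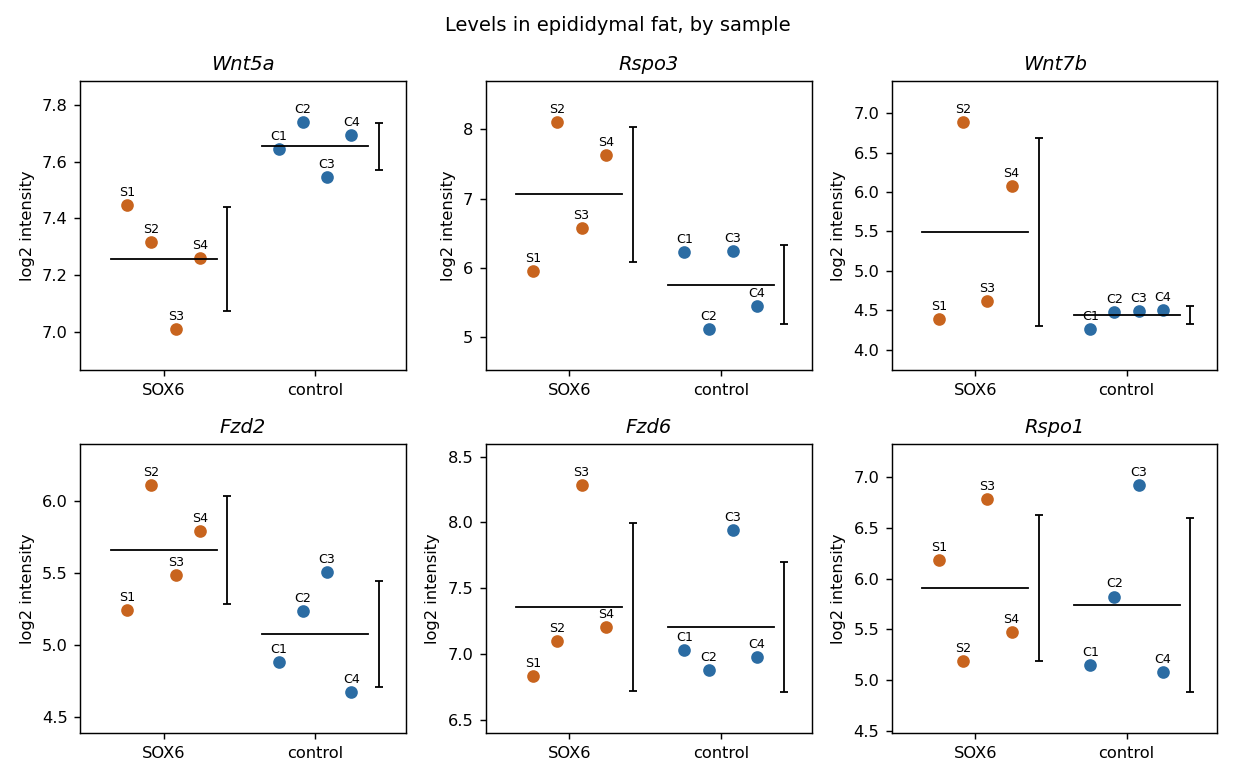
Log2 level of 6 genes in each EWAT sample, SOX6 oligonucleotide (orange, S1 to S4) left of control oligonucleotide (blue, C1 to C4), with the group mean as a line and its SD as the bar beside it; each panel has its own axis, which does not start at 0. Rspo3 and Wnt7b are highest in S2 and S4, Fzd6 and Rspo1 are highest in C3 and S3, and all Wnt5a values of the SOX6 group lie below those of the control group.

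In liver, none of the 15 members tested passed between SOX6 and control oligonucleotide (limma, Benjamini-Hochberg over 8939 genes), where 0.235% of all genes did, 0.0224% as higher and 0.213% as lower. 2 members had an unadjusted p below 0.05, against 9.89% of all genes, and they were the same 2 whose groups did not overlap, against 5.83%. These were Porcn and Fzd5. The differences ran from -0.33 to 0.35 with a median of -0.09, against 0.004 over all genes, with 6 above 0 and 9 below.

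Porcn had log2 levels of 5.80, 5.87, 5.69 and 5.68 in S1 to S4, against 6.17, 6.07, 5.93 and 6.01 in C1 to C4. The difference was -0.29 ± 0.11 (SE, n = 4 each; limma adjusted p = 0.401), with all SOX6 samples below all control samples. Within chips it was between -0.38 and -0.31 on 3 chips and 0.04 on the other. Fzd5, a receptor of the canonical branch, had 7.28, 7.13, 7.12 and 7.42 in S1 to S4 and 7.09, 6.995, 7.002 and 6.68 in C1 to C4. Its difference was 0.30 ± 0.12 (limma adjusted p = 0.435), positive within all 4 chips at 0.24 to 0.32. Signs within chips come from the same samples and add no support to the lack of overlap. The gap between the groups was small, since S3 at 7.12 lay just above C1 at 7.09.

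Of the hepatic endothelial ligands, Wnt2 had 6.11, 5.84, 6.02 and 5.93 in S1 to S4 and 5.10, 5.55, 5.96 and 5.89 in C1 to C4. The groups overlapped, the difference was 0.35 (interval -0.04 to 0.75), and without C1 it was 0.18. Rspo3 had 6.05, 6.00, 6.15 and 6.24 in S1 to S4 and 6.46, 6.23, 6.44 and 6.15 in C1 to C4, a difference of -0.21 (interval -0.47 to 0.05), negative within all 4 chips. Wnt5b differed by 0.23 (-0.07 to 0.52), and Fzd8 by 0.34 (-0.09 to 0.78). Tcf7l2 differed by -0.33 (-0.71 to 0.05), and without C3 by -0.16. Its second detected probe differed by -0.003. Wls differed by -0.24 (-0.61 to 0.14) and its other probes by -0.14 and 0.01. Ctnnb1 had an SD of 0.06 over the 8 livers, at the 1st percentile of all genes, and a difference of -0.007 (-0.15 to 0.14).

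**Figure D5:**
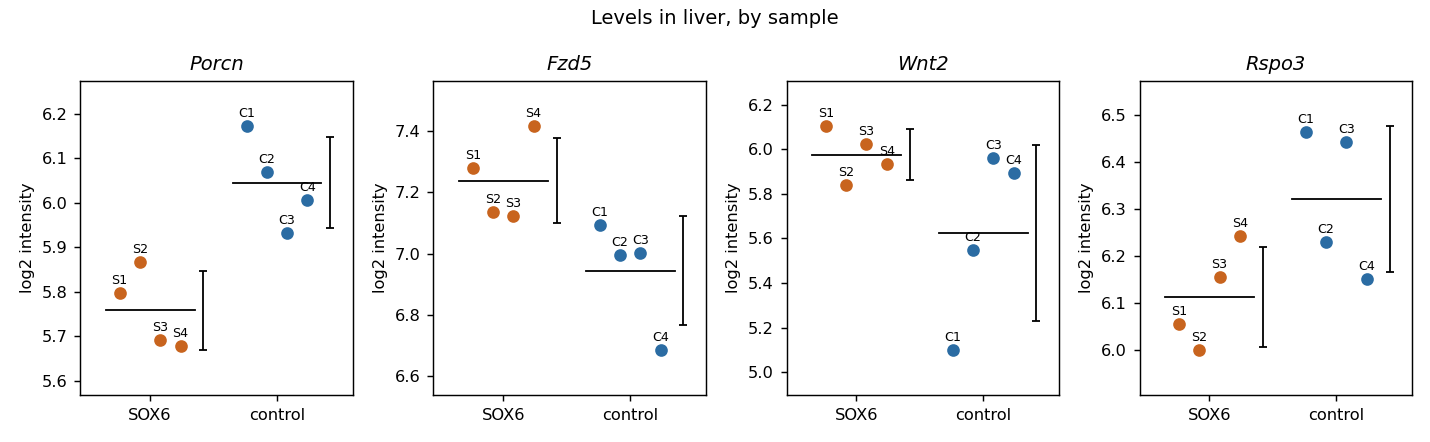
Log2 level of 4 genes in each liver sample, SOX6 oligonucleotide (orange, S1 to S4) left of control oligonucleotide (blue, C1 to C4), with the group mean as a line and its SD as the bar beside it; each panel has its own axis, which does not start at 0. The groups do not overlap for Porcn and Fzd5, and they overlap for Wnt2 and Rspo3.

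Other pathway genes gave no call in either tissue. In EWAT, 0 of 11 tested antagonists, 0 of 38 transducers and 0 of 15 general targets passed by limma, and in liver 0 of 9, 0 of 27 and 0 of 13. For the pericentral target genes of hepatocytes it was 0 of 9 in liver, with a median difference of -0.02. The smallest p-values in EWAT belonged to Csnk1d, a casein kinase of the pathway, at -0.26, and to Jup, a relative of beta-catenin, at -0.43 (limma adjusted p = 0.841 for both). The secreted antagonist Wif1 had 4.68, 8.27, 4.43 and 7.64 in S1 to S4 and 4.73, 4.56, 5.09 and 4.62 in C1 to C4, a difference of 1.504 with an interval of -0.32 to 3.33. S2 and S4 held the high values here too, and Jup differed by 0.03 once S2, S4, C3 and S3 were left out. Kremen1, a receptor for Dkk antagonists, differed by -0.28, Nkd1, a feedback target, by 0.39, and Bmp4 by 0.43. In liver the antagonist Dkk3 differed by 0.48, the beta-catenin inhibitor Ctnnbip1 by 0.31, Igfbp4 by 0.19, Reck by -0.29, Bmp4 by -0.46 and Ppard by 0.36. The lowest p of the pericentral genes were those of Cyp27a1 at -0.14 and Slc13a3 at -0.30. The lowest adjusted p among these genes was 0.363, that of Dkk3 in liver.

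An interaction term over 11471 genes asked whether the response to the SOX6 oligonucleotide depended on the tissue. None of the 22 members tested passed by limma, against 0.0174% of all genes, and 3 had an unadjusted p below 0.05, against 6.32%. Rspo3 had the smallest p, with a response 1.43 log2 units higher in EWAT than in liver (SE 0.50; limma adjusted p = 0.704), and 0.62 without EWAT samples S2 and S4. For Wnt5a the response was -0.40 in EWAT relative to liver (limma adjusted p = 0.762), where no liver array detected it, and for Fzd2, likewise undetected in liver, it was 0.44 (limma adjusted p = 0.766). The other 19 tested members had interaction estimates between -0.49 and 0.44.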

How the data were processed

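RNA of 16 tissue samples was measured on 24 arrays on 4 chips of 6. The authors deposited probe intensity values from GenomeStudio, per the submitters' processing notes, with a detection p-value for each probe. Between 25.7% and 37.0% of the deposited intensities of an array lie below 0. The authors' deposited log2 values, which share their quantiles over all 24 arrays to within 0.01, were an alternative. Of 45281 probes, 34885 carry 1 gene in the platform annotation, 18 several and 10378 none, and 34807 matched RefSeq (GRCm38.p6) by Entrez ID.

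The neqc function (limma 3.58.1, R 4.3.3), fed with the detection p-values, applied normal-exponential background correction, an offset of 16, quantile normalization and the log2 scale, within a tissue for the SOX6 comparisons and over all arrays for the tissue comparison and the interaction. Probes with a detection p-value below 0.05 in 3 or more samples were kept, and a gene was represented by its kept probe with the highest mean. Tests were two-sided and came from limma (lmFit, then eBayes with a trend in intensity) without covariates, and p-values were adjusted over all genes by Benjamini-Hochberg at 0.05. Exact permutation tests were used for Sox6. Levels of different probes were not compared, and the number of arrays limits the precision.

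Members and lists were chosen with earlier results of these data known. In each SOX6 comparison the 8 members with the smallest p were named, with 2 genes from each pathway list; other members are given after their values were seen. The labels give C1 to C4 and S1 to S4 in both tissues. Deviations from the group means correlated between same-numbered SOX6 and control samples at -0.01 to 0.33 in liver and -0.09 to 0.52 in EWAT. The 0.52 was that of S3 and C3, which both carried ciliated duct genes, and the other EWAT values were -0.09 to 0.24. Between same-numbered EWAT and liver samples the deviations correlated at -0.08 to 0.24 (control) and 0.03 to 0.21 (SOX6). The numbers were not taken to pair samples. Whether a number is the same mouse in both tissues is not stated, and all samples were treated as independent. The test was checked on simulated data.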

Additional observations from a re-analysis of the deposited data

Results flagged for a closer look

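In 4 of the 74 groups of 4 samples examined, 1 sample lay so far from the other three that its gap exceeded the 95% critical value of Dixon's test, where chance gives about 1 in 20 groups. Fzd6 in control EWAT was 7.94 in C3, against 6.88 to 7.03 in the others, and C3 carries ciliated duct genes. Ctnnb1 in EWAT with the SOX6 oligonucleotide was 11.76 in S3, against 11.45 to 11.47. Lrp5 in control EWAT was 7.82 in C1, against 7.17 to 7.27. Tcf7l1 in control liver was 7.53 in C1, against 6.55 to 6.72. The causes were not tested.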

How the results depend on the processing

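No member passed in either SOX6 comparison or in the interaction under any alternative run. Between control EWAT and control liver 14 to 16 members passed under the alternatives. Detection counts were 19 in EWAT and 14 in liver at a detection p under 0.01, and 18 in EWAT without C3, S2, S3 and S4; leaving out these samples was chosen after seeing the data. Over all genes, the 21 calls of the liver SOX6 comparison became 13 with signals floored at 16 and also 13 without a variance trend, and 113 with unaveraged arrays and chip as a term. With the replicate number as a block they became 43; no other SOX6 or tissue count moved by over 1.5 times under this block. Leaving out 1 liver sample gave 12 to 22. The 2 interaction calls over all genes became 0 with 75th-percentile scaling, 0 with the replicate block, 0 without S2 and S4, 5 with detection in all samples, 5 without a trend and 13 with chip as a term, and 0 to 3 when 1 sample was left out. Among the genes named by the rule 2 directions turned: Ctnnb1 between control EWAT and control liver was -0.0273 with 75th-percentile scaling, and Jup in EWAT differed by 0.0274 between SOX6 and control without C3, S2, S3 and S4. Over all tested members, at least 1 alternative turned the direction of 9 of 22 in the EWAT comparison, 3 of 15 in liver, 3 of 19 between tissues (Ctnnb1, Fzd3 and Lrp5) and 7 of 22 in the interaction. Of these only Ctnnb1 had passed. In the tissue comparison Fzd8 and Rspo1 did not pass with floored signals (adjusted p = 0.0627 and 0.141 by limma). These causes were not tested. Signals near background limit Wnt2, Wnt4, Wnt6 and Fzd2, whose differences are compressed by the offset.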
